A study of Oryza sativa Indica Group and Oryza sativa Japonica Group with 8 samples.

Results

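Type 1 metallothioneins of rice were followed through young panicles of 4 lines at 2 temperatures. MT1A (LOC4351213, also listed as OsMT1a, OsMT-I-1a and rgMT-1) and MT1B (LOC4332487, also OsMT-I-1b) were each read by 1 probe set of their own. Members were matched by symbol or synonym, with or without the prefix Os, in the array's probe-to-gene annotation. A further gene, LOC4352580, is listed as MT4A but carries OsMT1b among its older names, and it matches MT1B when capitals are ignored. It was therefore kept as a name match and described apart from the pair. This gave 3 genes and 4 probe sets of 57258 on the array, and all 4 passed the filter on dim signal. MT1A was chosen by its measured difference between tms5 and wild type at 23 °C, so that difference, and its change between temperatures, is given for these genes as a description with no test.

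Panicles were young, from microspore mother cells up to meiosis. AnN (indica) and ZH11 (japonica) are wild types, AnS-1 (indica) is labelled a TGMS mutant (thermosensitive genic male sterile), and Os02g12290iL1 (japonica) carries RNA interference against Os02g12290. In the design text AnS-1 and Os02g12290iL1 go under the name tms5, and the stated question is whether mRNA metabolism involves the ribonuclease RNase ZS1. Plants were grown in a cabinet at a day average of 23 °C (low) or 28 °C (high), with the design text naming a permissive and a restrictive temperature. Os02g12290iL1 is a single RNA interference line on its japonica background, and the labels do not say how many plants went into a sample. Each line had 1 array at each temperature, 8 arrays in all. The 4 groups of genotype and temperature thus held 2 arrays each, 1 per background, and a p-value reflects no more than the spread among these samples. The targeted gene Os02g12290 was not analysed here.

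Metallothioneins are small proteins in which closely spaced cysteines bind metal ions such as zinc and copper. Plants have several types, told apart by how the cysteines are spaced. Type 1 members are known from roots and from senescing leaves, type 2 members from leaves and stems, and type 4 members from seeds. In plants they are linked to metal storage, to metal release from ageing tissue and to protection from reactive oxygen. MT1A and MT1B lie on different chromosomes in the RefSeq gene table (assembly ASM3414082v1), which was used for names only because the sources used here do not name the build behind the array files.

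Signals are microarray intensities, compared between arrays for 1 probe set at a time. The deposited medians were 59.2 to 61.3 on the indica arrays at 23 °C, 139 to 141 on the indica arrays at 28 °C and 109 to 117 on the japonica arrays, so all 8 were quantile normalized to a common median of 107. Both arrays of every tms5 and wild type pair came from the same one of these 3 sets. In indica, temperature and array set cannot be told apart. The upper 60% of probe sets by mean signal were tested on log2 values with limma, a linear model that shares its estimate of spread across probe sets, and a call means an adjusted p under 0.05. Over all probe sets, tested or not, the median log2 change from 23 °C to 28 °C in the deposited values was 0.76 in each indica line. After normalization it was -0.14 in AnN and -0.16 in AnS-1. In ZH11 and Os02g12290iL1 it was -0.05 and 0.02 in the deposited values.

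MT1A was bright in both wild types and dimmest in the RNA interference line at 23 °C. At 23 °C its normalized intensity was 3468 in AnN, 765 in AnS-1, 1356 in ZH11 and 151 in Os02g12290iL1. At 28 °C it was 2212 in AnN, 1009 in AnS-1, 1599 in ZH11 and 1326 in Os02g12290iL1. The 4 wild-type arrays lay above all 4 tms5 arrays, with ZH11 at 23 °C only just above Os02g12290iL1 at 28 °C. Set against its wild type at 23 °C, AnS-1 was 4.46-fold lower for MT1A and Os02g12290iL1 was 8.22-fold lower. The mean log2 difference there was -2.60 ± 0.62 (SD, n = 2 backgrounds). In bulk tissue, fewer cells that express a gene and less of its RNA per cell cannot be told apart.

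MT1B had its highest signal on a single array. At 23 °C its normalized intensity was 3588 in AnN, 292 in AnS-1, 499 in ZH11 and 142 in Os02g12290iL1. At 28 °C it was 636 in AnN, 158 in AnS-1, 394 in ZH11 and 554 in Os02g12290iL1. In indica the wild type was above the mutant at both temperatures, whereas in japonica the RNA interference line was below ZH11 at 23 °C and above it at 28 °C. At 23 °C MT1B was 11.7-fold lower in AnS-1 and 3.27-fold lower in Os02g12290iL1, and the log2 differences averaged -2.63 ± 1.30 (SD, n = 2). MT1A thus had the greater fold in japonica and MT1B in indica.

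**Figure D1:**
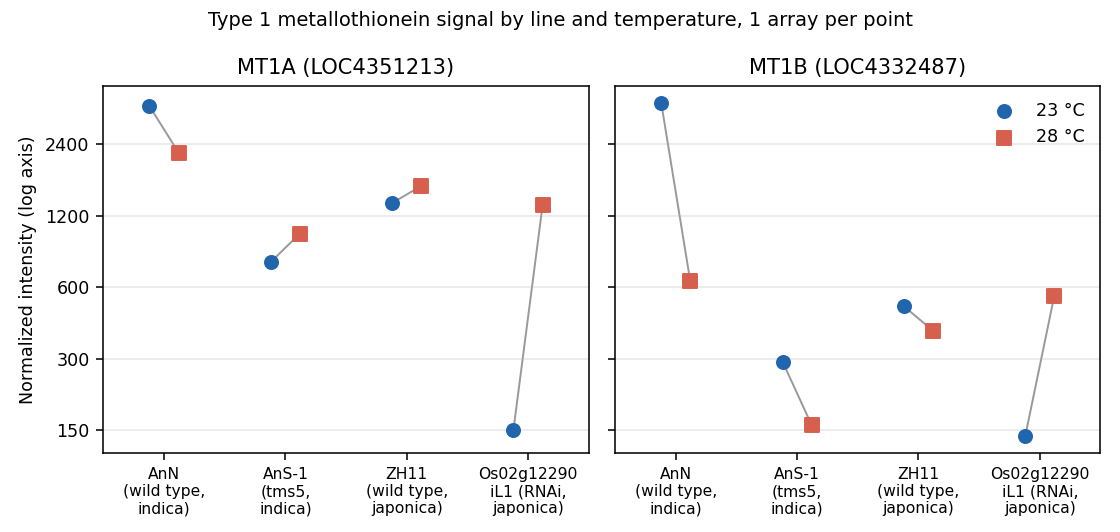
Normalized intensity (vertical log axis) of MT1A and MT1B in the 4 lines, with 23 °C as blue circles, 28 °C as red squares and a grey line joining the arrays of a line, 1 array per point. Both genes peak in AnN at 23 °C (3468 and 3588) and are lowest in Os02g12290iL1 at 23 °C (151 and 142). In the deposited values MT1A is highest in AnN at 28 °C.

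Of the 34317 tested probe sets, 119 (0.347%) fell short of the wild type by 2-fold or more in AnS-1 and also in Os02g12290iL1 at 23 °C, and MT1A and MT1B were among them. That contrast was used to choose MT1A, so nothing is read from this count. Probe sets of a single named gene were ranked by the smaller of their 2 log2 decreases at 23 °C. MT1A came 6th with 2.16 and MT1B 12th with 1.71. Just inside the first 8 genes of that ranking, from which MT1A was taken, the chitinase gene CH16 had 1.86, and just outside them MIF1 had 1.75. On all 8 arrays limma called 0% of probe sets at 23 °C, with 738 at an unadjusted p under 0.05.

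At 28 °C, the temperature that did not enter the choice of MT1A, neither gene passed the test of tms5 against wild type. For MT1A the decrease was 2.17-fold in AnS-1 and 1.20-fold in Os02g12290iL1. Its mean log2 difference was -0.69 ± 0.60 (SD, n = 2), with a standard error of 0.62 in the limma fit and an adjusted p of 1. MT1B was 3.74-fold lower in AnS-1 and 1.39-fold higher in Os02g12290iL1, so the backgrounds went opposite ways. Its mean log2 difference was -0.71 ± 1.68 (SD, n = 2), with a limma standard error of 1.01 and an adjusted p of 1. The sign of the MT1B mean rests on AnS-1 at 28 °C, since the japonica pair alone is positive. Without that array the fit, which then fills the missing indica value from the gap between backgrounds in the other groups, gave 0.88 for MT1B and 0.17 for MT1A, although the japonica pair of MT1A is itself negative. In this comparison limma called 0% of the probe sets, 405 had an unadjusted p under 0.05, and 167 (0.487%) were lower by 2-fold or more in AnS-1 and in Os02g12290iL1 alike. Neither MT1A nor MT1B was in that set.

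From 23 °C to 28 °C the difference between tms5 and wild type came closer to 0 for MT1A in both backgrounds and for MT1B in indica, and changed sign for MT1B in japonica, as a description. The log2 difference of MT1A moved up by 1.04 in indica and by 2.77 in japonica, and that of MT1B by 1.64 and 2.18. In the normalized values the arrays behind this were not the same in the 2 backgrounds. In japonica the RNA interference line had log2 changes of 3.01 for MT1A and 1.85 for MT1B, while ZH11 had 0.24 and -0.33. In indica the wild type AnN had -0.64 for MT1A and -2.47 for MT1B, while AnS-1 had 0.39 and -0.82. These are single pairs of arrays, and for indica they include any change of array set. In the deposited values MT1A read 2535 in AnN at 23 °C and 2978 at 28 °C, and 508 and 1336 in AnS-1. MT1B read 2635 and 859 in AnN, and 182.7 and 204.5 in AnS-1. The sign of the change in AnN for MT1A and in AnS-1 for MT1B thus depends on the normalization.

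Averaged over the lines of a background, temperature gave no call for either gene. The residuals behind these standard errors are the changes of the genotype difference with temperature, which contain the 23 °C difference that chose MT1A, so the standard errors and p-values are not independent of that choice. In japonica the mean log2 change from 23 °C to 28 °C was 1.62 (limma standard error 0.69, adjusted p = 0.68) for MT1A and 0.76 (standard error 0.64, adjusted p = 0.822) for MT1B. Without Os02g12290iL1 the values are those of ZH11 alone, 0.24 and -0.33. Over all probe sets limma called 0% for temperature in japonica, with 2631 at an unadjusted p under 0.05.

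In indica the change was -0.13 (standard error 0.69, adjusted p = 0.891) for MT1A and -1.65 (standard error 0.64, adjusted p = 0.0926) for MT1B. There limma called 46% of the probe sets, in a comparison where temperature and array set coincide. On the deposited values, which were not set to a common scale, the indica change was 0.80 for MT1A and -0.72 for MT1B. The difference between the backgrounds in the temperature change was 1.75 (standard error 0.98, adjusted p = 0.243) for MT1A and 2.41 (standard error 0.90, adjusted p = 0.12) for MT1B, and 22.7% of all probe sets were called for it. Leaving out 1 array moved it from 0.36 to 3.13 for MT1A, lowest without an Os02g12290iL1 array, and from 1.32 to 3.5 for MT1B.

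**Figure D2:**
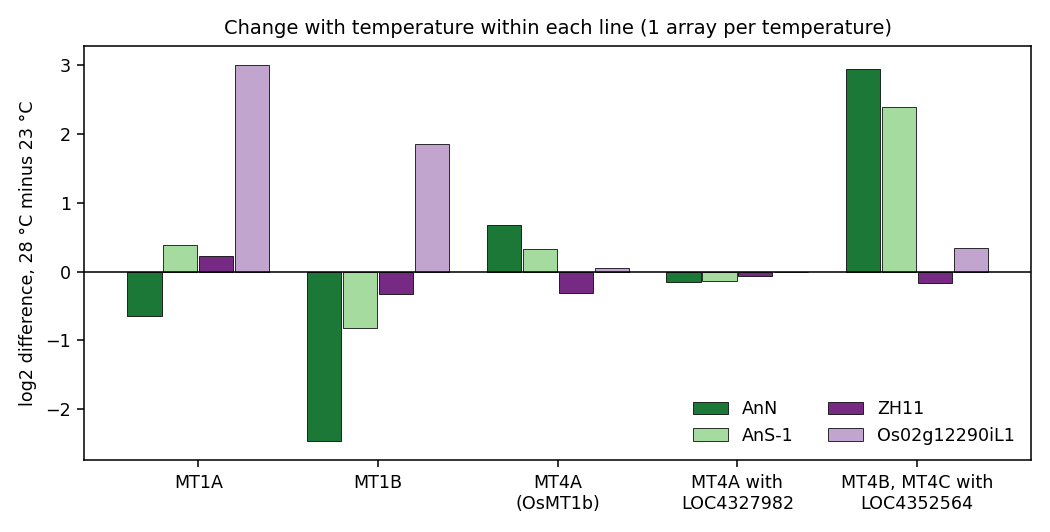
Log2 difference in normalized intensity between 28 °C and 23 °C (vertical axis) for 5 metallothionein probe sets, 1 bar per line and 1 array per temperature. For MT1A and MT1B the tallest upward bars belong to Os02g12290iL1 (3.01 and 1.85) and the deepest to AnN (-0.64 and -2.47), while the probe set of MT4B and MT4C is high at 28 °C in both indica lines. In the deposited values MT1A in AnN was higher at 28 °C than at 23 °C.

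Between backgrounds, japonica arrays were lower than indica arrays by a mean log2 difference of -0.91 (limma standard error 0.44, adjusted p = 0.178) for MT1A and -0.68 (standard error 0.71, adjusted p = 0.5) for MT1B. Neither passed, in a comparison where limma called 27.7% of probe sets. Without AnN or ZH11 at 23 °C the value for MT1B was 0.025, so its direction rests on 1 pair of arrays. A difference in transcript level, in the match of the probes to each background's sequence and in array scale cannot be told apart here.

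The levels of MT1A ran in the order AnN at 23 °C, AnN at 28 °C, ZH11 at 28 °C, ZH11 at 23 °C, Os02g12290iL1 at 28 °C, AnS-1 at 28 °C, AnS-1 at 23 °C and Os02g12290iL1 at 23 °C. This is the order of the normalized values, and in the deposited values AnN at 28 °C was above AnN at 23 °C. With no replicate of a line at a temperature, spread can be taken only from a fit. The residual SD used here is that of limma, drawn toward the spread shared across probe sets. It is the SD of a single array. A gap between neighbouring arrays varies more than that, so a gap just over the residual SD does not separate them. On the log2 scale the residual SD was 0.62 for MT1A in the fit of groups and 0.69 in the fit of lines. The gap at the bottom of the order (2.23) exceeded both, the gap at the top (0.64) exceeded the first alone, and the 5 gaps between ran from 0.03 to 0.46. For MT1B the order was AnN at 23 °C, AnN at 28 °C, Os02g12290iL1 at 28 °C, ZH11 at 23 °C, ZH11 at 28 °C, AnS-1 at 23 °C, AnS-1 at 28 °C and Os02g12290iL1 at 23 °C. Its gap at the top, 2.47, exceeded the residual SD in both fits (1.01 for groups and 0.64 for lines). The gap between the AnS-1 arrays, 0.82, exceeded that of the lines alone, and the other 5 neighbouring pairs differed by less than either.

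LOC4352580, the name match listed as MT4A, was dim and showed neither pattern. Its own probe set read 63.5 in AnN, 51.6 in AnS-1, 92 in ZH11 and 87.8 in Os02g12290iL1 at 23 °C. At 28 °C it read 111 in AnN, 69 in AnS-1, 71.6 in ZH11 and 92.2 in Os02g12290iL1. The groups overlapped at each temperature. At 28 °C its log2 difference was -0.58 in indica and 0.30 in japonica (adjusted p = 1). Its change in indica from 23 °C to 28 °C, 0.50 on the log2 scale, had an adjusted p of 0.0502 in limma. A further probe set is shared with LOC4327982, listed as a pseudogene, so the source of its signal is uncertain. It read 5753 to 7277 on all 8 arrays, a range of 0.34 on the log2 scale, against 4.38 for MT1A and 4.52 for MT1B.

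The gene table holds 9 metallothionein genes, read by 19 probe sets, of which 15 passed the filter and 11 belonged to other genes (MT2A, MT2B, MT2C, MT4B, MT4C). At 23 °C, 1 of these 11 was higher and 4 were lower in both tms5 lines, 0 of them by 2-fold, with a median log2 difference of -0.01, against 0.02 over all tested probe sets. At 28 °C, 5 were higher and 2 lower in both, again 0 by 2-fold, with a median of 0.05, against 0.02. The limma test called 0 of them at either temperature. MT1A was chosen by its difference at 23 °C, so nothing is read from how these probe sets compare with it there. Over all tested probe sets 26.6% were lower in both tms5 lines at 23 °C and 20.4% at 28 °C, and 35.2% and 31.7% were higher in both.

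MT2C, a type 2 member, read 9019 to 16230 on all arrays in 4 of its 5 tested probe sets. At this end of the scale quantile normalization sets values by rank among few probe sets, so small differences carry little. Of these 4 probe sets, 1 passed for temperature in indica, with a log2 change of -0.45 (limma adjusted p = 0.023, where 46% of all probe sets were called), but in the deposited values the change was 0.36, and the call was lost when any 1 array was left out. MT2B, also type 2, had log2 differences of japonica minus indica of -0.43 (limma adjusted p = 0.0431) and -0.42 (adjusted p = 0.048) in 2 of its probe sets, in a comparison that called 27.7% of all. Of the 11 probe sets of other members, 2 (18.2%) were called in each of these comparisons. Both MT2B calls were lost when any 1 array was left out.

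MT2A was read by 4 probe sets that did not agree. A probe set with the suffix x_at gave 66.3 in AnN and 277 in AnS-1 at 23 °C, and 312 in ZH11 and 171 in Os02g12290iL1. At 28 °C it gave 169 and 66.2 in indica, and 347 and 191 in japonica. The tms5 line was therefore higher in indica at 23 °C and lower in the other 3 pairs. The other MT2A probe set that passed the filter, with the suffix s_at, ranged from 810 to 1407.

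The probe set shared by MT4B, MT4C and LOC4352564, carried the only metallothionein call for a difference between backgrounds in the temperature change. It read 42.8 in AnN and 71.5 in AnS-1 at 23 °C, and 438 and 442 at 28 °C. On the 4 japonica arrays it read 29 to 41.1. The log2 change in indica was 2.67 (limma standard error 0.20, adjusted p = 0.00167), and japonica minus indica was -2.58 (standard error 0.28, adjusted p = 0.00804). The second call was lost without any 1 of the japonica arrays. In these comparisons 46% and 22.7% of all probe sets were called, and temperature in indica coincides with array set.

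**Figure D3:**
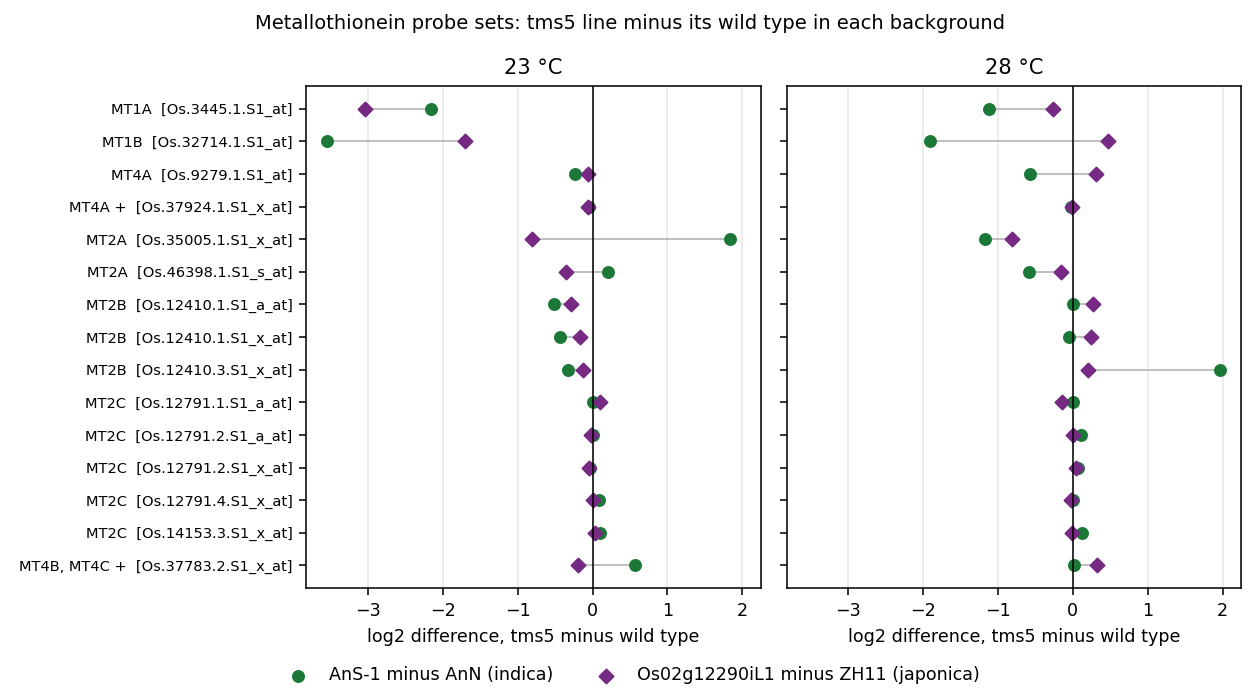
Log2 difference between each tms5 line and its wild type (horizontal axis) for the 15 metallothionein probe sets that passed the filter, at 23 °C (left) and 28 °C (right), with indica as green circles and japonica as purple diamonds, each from 1 pair of arrays. A plus sign marks a probe set shared with another gene. At 23 °C MT1A and MT1B lie at -3.55 to -1.71 in both backgrounds, while no other probe set is 2-fold lower in both. MT1A was chosen by this contrast, so its place below the others is a description and no finding.

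The named genes whose profiles were most like the type 1 pair were found from the root mean square (RMS) log2 difference of centred profiles over the 8 arrays, among 2690 tested probe sets of a single named gene. Because the 23 °C contrast weighs heavily in such profiles, likeness is a description. For MT1A the median RMS difference over all candidates was 1.26. Its nearest was MS, listed under the symbol of malate synthase, an enzyme of the glyoxylate cycle, at 0.51. SGR, which acts in chlorophyll breakdown, followed with its 2 probe sets at 0.53 and 0.55, then MIF1 at 0.56 and the peroxygenase gene PXG at 0.64.

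For MT1B the nearest was ICL, isocitrate lyase, likewise an enzyme of the glyoxylate cycle, at an RMS difference of 0.41 against a median of 1.35. GH3.1, which conjugates auxin to amino acids, had 0.72, the SGR probe sets had 0.75 and 0.81, and NOL, a chlorophyll b reductase gene, had 0.82. SGR was the only gene among the 5 nearest probe sets of both MT1A and MT1B. MT1A and MT1B differed from each other by 0.84, which made MT1A the 7th nearest to MT1B and MT1B the 18th nearest to MT1A.

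The levels of these neighbours show what the likeness rests on. ICL read 1292 in AnN at 23 °C and 27.8 to 210 on the other 7 arrays. At 23 °C MS read 3281 in AnN, 325 in AnS-1, 1168 in ZH11 and 225 in Os02g12290iL1, and at 28 °C 2673, 1255, 2073 and 1379. MS thus had the tms5 line below its wild type in all 4 pairs, as MT1A had. The SGR probe set with the suffix s_at read 1175 in AnN, 193 in AnS-1, 386 in ZH11 and 134 in Os02g12290iL1 at 23 °C, and 547, 348, 611 and 356 at 28 °C. For NOL, 579 in AnN at 23 °C stood above 101 to 142 on the other arrays, so in japonica it was not lower in the RNA interference line as MT1B was. The dim MT4A probe set was nearest to OsSAP16 (0.13), and the one shared with LOC4327982 to RPS21, a ribosomal protein gene (0.03).

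**Figure D4:**
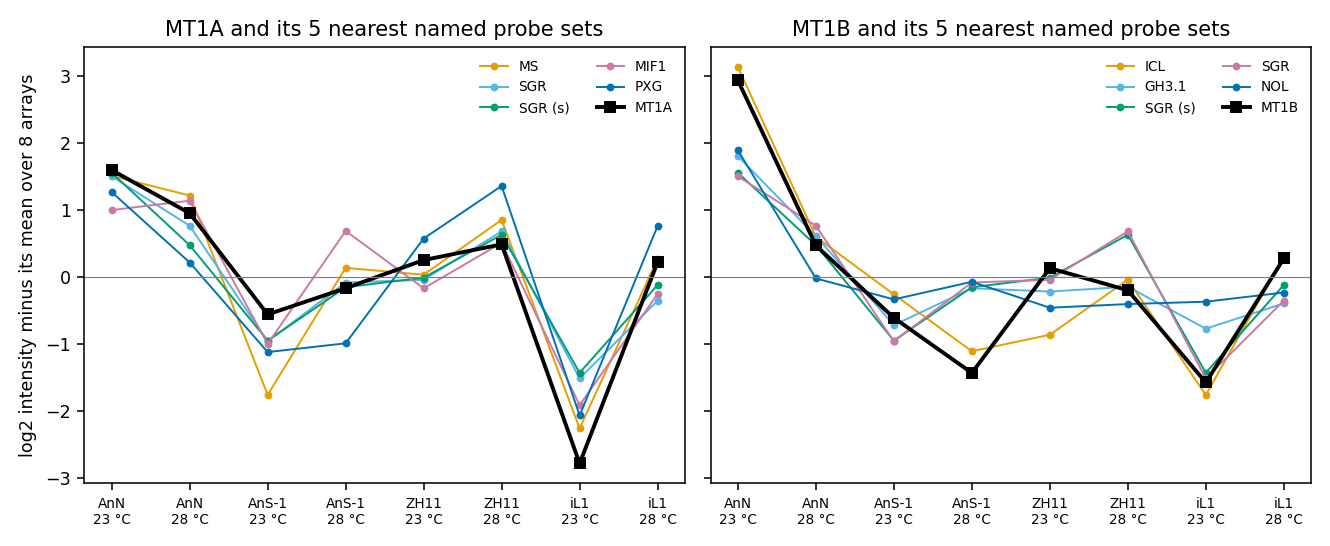
Log2 intensity minus its mean over the 8 arrays (vertical axis) for MT1A (left) and MT1B (right), in black, with the 5 named probe sets of smallest RMS difference in colour, 1 array per position, where iL1 stands for Os02g12290iL1 and (s) for the SGR probe set with the suffix s_at. The MT1A neighbours are low together in Os02g12290iL1 at 23 °C, and the MT1B neighbours share the peak in AnN at 23 °C.

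Other genes that move, store or chelate metals were read by 54 probe sets, of which 38 passed the filter. At 23 °C, 3 were higher and 17 lower in both tms5 lines, 0 by 2-fold and 0 called by limma, with a median log2 difference of -0.13. Over all tested probe sets 35.2% were higher and 26.6% lower in both, with a median of 0.02. NAS3, a nicotianamine synthase that makes a metal chelator, had log2 differences of -1.19 in indica and -0.51 in japonica, and MTP5, a cation carrier gene, had -0.95 and -0.48. NAS3 did not keep this direction in japonica at 28 °C, with 330 in ZH11 and 909 in Os02g12290iL1, against 306 in AnN and 274 in AnS-1. At 28 °C, 5 of the 38 probe sets were higher and 14 lower in both tms5 lines, with a median of -0.05. Over all tested probe sets 31.7% were higher and 20.4% lower in both, with a median of 0.02. HMA5, a copper-transporting ATPase, was the 1 of these 38 that was 2-fold lower in both there, with -1.28 and -1.34. COPT1, a copper transporter gene, had -0.16 and -0.54.

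Across backgrounds 19 of the 38 metal handling probe sets were called by limma (5 higher in japonica), or 50%, against 27.7% of all. From 23 °C to 28 °C in indica 18 were called (11 higher), or 47.4%, close to the 46% of all probe sets. Genes that remove reactive oxygen were read by 23 probe sets, of which 22 passed. At 23 °C, 4 were higher and 8 lower in both tms5 lines, with a median of -0.06, and at 28 °C 3 and 7, with -0.02. The shares of all tested probe sets were 35.2% and 26.6% at 23 °C, and 31.7% and 20.4% at 28 °C. The catalase gene CATA had log2 differences of -0.59 and -0.73 at 23 °C with 1 of its probe sets and -0.58 and -0.68 with another, and limma called 0 of the 22 in tms5 against wild type at either temperature. At 28 °C both of these CATA probe sets were higher in Os02g12290iL1 than in ZH11 and lower in AnS-1 than in AnN. Across backgrounds 4 of the 22 were called (18.2%, against 27.7% of all), for temperature in indica 9 (40.9%, against 46%) and for the difference in temperature change 5 (22.7%, the share of all probe sets).

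Markers of tissue and stage were summed on each array, and the part of these tissues in the results above was not tested. The summed intensity of 10 green tissue probe sets was 15630 in AnN, 8419 in AnS-1, 7338 in ZH11 and 6925 in Os02g12290iL1 at 23 °C. At 28 °C it was 8508 and 8777 in indica and 6279 and 3718 in japonica. AnN at 23 °C, the array on which MT1A and MT1B peaked in the normalized values, also had the highest green tissue sum. In the deposited values MT1A was highest in AnN at 28 °C (2978, against 2535 at 23 °C). The 10 probe sets read 3 genes, and a sum follows the brightest of them. In AnN a CAB2R probe set read 5231 at 23 °C and 1236 at 28 °C, and an RBCS probe set 1338 and 2685. From 23 °C to 28 °C in indica, 5 of the 8 tested green tissue probe sets were higher and 3 lower. Of 8 tested green tissue probe sets, 6 were lower in both tms5 lines at 23 °C and 0 at 28 °C. Over all tested probe sets 26.6% and 20.4% were lower in both. The 8 come from no more than 3 genes.

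The sum of 13 meiosis probe sets was 4907 in AnN and 6827 in AnS-1 at 23 °C, 2861 and 3639 at 28 °C, and 6440 to 7650 in japonica. Of these, 8 of 13 were higher in both tms5 lines at each temperature, against 35.2% of all tested probe sets at 23 °C and 31.7% at 28 °C. The sum of 9 tapetum probe sets was 7920 in AnN and 5900 in AnS-1 at 23 °C, 18120 and 7316 at 28 °C, 28140 in ZH11 and 19620 in Os02g12290iL1 at 23 °C, and 26860 and 14680 at 28 °C. That sum was lower in the tms5 line of every pair, and it follows bright genes: C6 read 17.8 in AnN at 23 °C and 7438 at 28 °C. Of the 9 tapetum probe sets, 6 were lower and 0 higher in both tms5 lines at 23 °C, 0 lower by 2-fold. At 28 °C 7 were lower and 0 higher in both, 4 of them lower by 2-fold. Over all tested probe sets 26.6% and 20.4% were lower in both, and 0.487% by 2-fold at 28 °C. Limma called 0 of the 9 in tms5 against wild type at either temperature. The 10 floral organ probe sets summed to 29690 to 43460, and none of the markers of any of these lists was at 0 on all arrays.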

How the data were processed

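Each array was hybridised with biotinylated cRNA made from total RNA of young panicles, per the labels. The authors deposited a table of probe set intensities. Per the submitters' processing notes the software was Affymetrix Expression Console with RMA, and no version is named. The values are linear, although RMA usually gives log2 values, and the scale of the 3 array sets is not explained in the sources used here. All 57258 probe sets were quantile normalized, 64 reporter controls were dropped, and the upper 60% by mean of the other 57194, 34317 probe sets, were tested as log2(intensity + 16), which understates changes of dim probe sets. Fold changes are on this scale.

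Limma 3.58.1 in R 4.3.3 fitted genotype by temperature groups with background as a block (3 residual degrees of freedom, prior 2.16), and line means with a temperature slope per background (2 residual, prior 2.69). Tests were two-sided. A call needed a p under 0.05 after Benjamini-Hochberg adjustment over all tested probe sets. Both fits were tested on simulated data. As estimates, the genotype difference at 28 °C, the background and the temperature slopes are orthogonal to the 23 °C genotype difference, which chose MT1A. Their standard errors are not, since residuals include values of the 23 °C arrays. The number of arrays limits the precision.

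The probe annotation gave 1 gene to 22436 probe sets, several to 95 and none to 34727. All 17960 gene IDs were found in the RefSeq gene table. Members, lists and rules were chosen with earlier results of these data known. Named were all metallothionein probe sets, the 5 nearest profiles per member, and per further list the 2 probe sets with the greatest mean difference of 1 sign in both backgrounds, in part given here. From the marker and further lists 4 genes that only share a name were dropped. A planned promoter motif search was not run. Alternatives were other filters, offsets and normalizations, eBayes with trend and robust, array set as a block, fewer arrays, and leaving out each array.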

Additional observations from a re-analysis of the deposited data

Results flagged for a closer look

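MT1B differed between tms5 and wild type in opposite directions in the 2 backgrounds at 28 °C, with log2 differences of -1.90 in indica and 0.48 in japonica. The difference between the backgrounds was not tested, since each rests on 1 pair of arrays. MT4A, in the probe set it does not share, showed the same at lower signal, with -0.58 in indica and 0.30 in japonica, likewise not tested. The probe set shared by MT4B, MT4C and LOC4352564 changed with temperature differently in the backgrounds, by -2.58 on the log2 scale (japonica minus indica, limma adjusted p = 0.00804), and temperature in indica cannot be told apart from array set.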

How the results depend on the processing

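Leaving out 1 array in turn gave ranges for each mean log2 difference, with the lone array of a group assumed to vary like the others. At 23 °C tms5 minus wild type ran from -3.48 to -1.72 for MT1A and from -4.04 to -1.21 for MT1B, and at 28 °C from -1.56 to 0.17 and from -2.31 to 0.88. The change of that difference with temperature ran from 1.03 to 2.78 for MT1A and from 0.32 to 3.51 for MT1B. Japonica minus indica ran from -1.34 to -0.47 for MT1A and from -1.48 to 0.025 for MT1B, temperature in japonica from 0.24 to 3.01 for MT1A and from -0.33 to 1.85 for MT1B, and temperature in indica from -0.64 to 0.39 for MT1A. With the deposited values the last was 0.80. At 28 °C MT4A ran from -0.64 to 0.37 and the probe set shared with LOC4327982 from -0.061 to 0.027, and with the deposited values the MT2C change in indica was 0.36. No call was made for MT1A or MT1B in the tested comparisons under any alternative run, the closest being MT1B for temperature in indica (adjusted p from 0.0501 to 0.391). MT4A passed that comparison without a filter, with an offset of 1, with trend and robust, with the deposited values and without either AnS-1 array.

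Calls over all probe sets moved too. At 28 °C tms5 against wild type gave 135 with only the 4 arrays of the comparison and 3 with array set as a block, and at 23 °C 35 without Os02g12290iL1 at 23 °C. Temperature in indica gave 8998 (upper 40%) to 28529 (deposited values), and the share of higher calls was 43% as reported and 97.1% with the deposited values. Japonica against indica gave 2988 to 12478, with 46.7% higher as reported and 69.3% with the deposited values. The difference in temperature change gave 0 without any 1 japonica array and 24727 with the deposited values, with 47.3% and 2.11% higher as reported and with the deposited values. MT1A and MT1B have 1 probe set each, so probe sets could not be compared within them. The labels carry no replicate numbers, and lines were paired by background, which is the block in the fits as reported.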

Other observations

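A probe set of MT2B stood apart on a single array. It read 14160 in AnS-1 at 28 °C and 3105 to 5317 on the other 7 arrays. The other MT2B probe sets that passed the filter read 5292 and 4887 on that array, within their ranges elsewhere.

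MT2A has a dim probe set that did not pass the filter, with the tms5 line below its wild type in all 4 pairs. It read 46.1 in AnN and 20.9 in AnS-1 at 23 °C, 144 and 36.9 at 28 °C, 137 in ZH11 and 67.6 in Os02g12290iL1 at 23 °C, and 195 and 49.8 at 28 °C. Its log2 differences were -0.75 and -0.87 at 23 °C and -1.60 and -1.68 at 28 °C, in indica and japonica. It was picked after its values were seen and has no test.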
